A study of Mus musculus with 2 samples.

Results

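Among 14795 single mouse bone marrow cells, 318 carried no class name in the deposited annotation, which calls them Unannotated. They were taken exactly as labelled there, and made up 175 of 7889 cells (2.22%, exact binomial 95% interval 1.91 to 2.57) in the library labelled Runx1 KO and 143 of 6906 cells (2.07%, 1.75 to 2.44) in the Control library. The other cells fell into 17 classes named after genes. All cells came from the hind limb marrow of C57BL/6 mice and were sorted as Lineage-, c-Kit+ and Sca1-, a gate called LKS- that holds most myeloid, erythroid and platelet-forming progenitors. The Control library pooled marrow of 1 Runx1f/f mouse and 1 Runx1f/- mouse, the second carrying a germline mutation of 1 Runx1 allele. For the library labelled Runx1 KO, the sources used here give neither the Cre driver nor the number of mice. One label field speaks of embryos; the tissue and extraction fields were followed. The annotation calls the reference library wild type, and it was taken to be Control.

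The transcription factor Runx1 acts in blood progenitors on the way to platelets, lymphocytes and several myeloid cells. Progenitors switch on the genes of a lineage in steps: the integrin Itga2b (CD41) appears early on the megakaryocyte path and the granule chemokine Pf4 later, while Flt3, a cytokine receptor, and Dntt, the enzyme that adds bases at immunoglobulin and T cell receptor gene joints, mark early lymphoid progenitors. Cd34 is a surface protein of early progenitors. The comparison asks which of these genes single cells without a class carried, and how the cells differed from the classes beside them.

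Each group was 1 library, so no difference below could be set against a spread between animals, no p-value is given, and every interval covers counting error only. The Unannotated cells held 1899931 unique molecular identifiers (UMIs, counted transcripts) in the KO-labelled library and 1866576 in Control. They were shallower than named cells, with a median of 10168 against 16328.5 UMIs per cell in the KO-labelled library and 12440 against 21925 in Control. At least 10% of UMIs were mitochondrial in 20 Unannotated cells (11.4%, 7.12 to 17.1) against 3.95% of named cells in the KO-labelled library, and in 8 cells (5.59%, 2.45 to 10.7) against 2.68% in Control. Scrublet, which scores cells for being 2 cells in 1 droplet, called 1 Unannotated cell in each library (0.571% and 0.699%), against 3.45% of named cells in the KO-labelled library and 2.25% in Control. The libraries shared 13 cell barcodes, and 0 of those were Unannotated cells.

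Runx1 (chromosome 16, 92601466 to 92826149 on GRCm38, minus strand, protein coding) was higher in the library labelled Runx1 KO. Its level in Unannotated cells was 708 counts per 1000000 UMIs (CPM) in the KO-labelled library and 248 CPM in Control, a ratio of 2.86 (exact 95% interval for a ratio of counts, 2.57 to 3.19), and 171 of 175 KO-labelled cells and 121 of 143 Control cells had at least 1 UMI. Without the cells placed beside the Ly86 class, described below, the log2 ratio was 0.81 in place of 1.48. UMIs from the 3′ end do not check a deletion that lies elsewhere in the gene, so the library is called KO-labelled throughout.

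The Unannotated cells of the 2 libraries held different lineage genes. In the KO-labelled library nearly all of them carried Itga2b with Meis1, a homeobox gene of early progenitors, and lymphoid genes other than Il12a were in few cells: Il7r in 13, Ighm in 12, Satb1 in 4 and Notch1 in 1. Il12a, an interleukin 12 subunit gene that the lymphoid list holds, was in 118 of the 175. It was also in 79.5% of the KO-labelled cells of the Pf4 class. In Control about as many carried Dntt and Flt3 as did not, and among the 67 cells without Dntt, 42 had Itga2b and 37 had Ms4a2, a gene of the basophil and mast cell path. The promoters of Dntt and Itga2b are given here because the results turn on these genes. The 300 bases around each start site come from RefSeq on GRCm38.p6, read along the gene's strand (Dntt, plus strand, chr19:41029025-41029324; Itga2b, minus strand, chr11:102469834-102470133), and capitals mark matches on either strand. The letters searched for RUNX factors were TGTGGT. For GATA factors the letters searched were AGATAA. For ETS factors the letters searched were AGGAAG, and these 3 sets share no overlap in either window.
Dntt: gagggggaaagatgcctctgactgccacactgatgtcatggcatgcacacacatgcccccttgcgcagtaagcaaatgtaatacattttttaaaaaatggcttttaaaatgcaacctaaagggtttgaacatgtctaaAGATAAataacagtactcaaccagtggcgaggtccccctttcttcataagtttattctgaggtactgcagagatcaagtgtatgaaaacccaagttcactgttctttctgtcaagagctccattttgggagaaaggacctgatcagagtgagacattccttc
Itga2b: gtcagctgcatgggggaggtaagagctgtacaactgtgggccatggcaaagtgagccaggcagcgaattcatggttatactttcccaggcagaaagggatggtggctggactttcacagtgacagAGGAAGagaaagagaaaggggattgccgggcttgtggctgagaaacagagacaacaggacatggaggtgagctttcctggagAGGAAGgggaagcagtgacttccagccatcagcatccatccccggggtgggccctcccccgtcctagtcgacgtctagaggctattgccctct
The Dntt window held 1 GATA match and the Itga2b window 2 ETS matches. The RUNX letters were in 0 windows of Dntt, Flt3, Itga2b and Cd34. Over all 32851 promoters of this length in the table, 16.8% held the RUNX letters, 11.2% the GATA letters and 35.4% the ETS letters, so such matches are common, and neither a match nor its lack says whether a factor binds.

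Dntt (chromosome 19, 41029275 to 41059525, plus strand) had 1.05 CPM (2 UMIs in 2 of 175 cells) in KO-labelled Unannotated cells and 1405 CPM (2623 UMIs in 76 of 143 cells) in Control ones. Control over KO-labelled, the ratio was 1335 (369 to 11029). Named cells had 1.22 CPM in the KO-labelled library and 19.2 CPM in Control. The Unannotated cells, 2.07% of the Control library, thus held 46.0% of its 5708 Dntt UMIs. Counting cells with at least 5 Dntt UMIs, Control had 67 Unannotated cells among 215 in all, beside 119 in the Ly86 class, 12 in the Vpreb1 class and 11 in the CD34 class, and the KO-labelled library had 6 in all and 0 Unannotated. Among Control classes of 20 cells or more, Unannotated stood second in Dntt after the Vpreb1 class (1564 CPM), which is named by a pre-B cell receptor gene. Dntt was rare in the Car1 class: 1.13% of Control Car1 cells, at a median of 15393.5 UMIs, had a Dntt UMI, against 53.1% (44.6 to 61.5) of Unannotated cells at 12440. Those 25 Car1 cells held 74 Dntt UMIs, and 3 of them had at least 5. Free RNA was not measured, and the source of these UMIs was not tested. After each cell was thinned to 5000 UMIs the share was 56.2% of 128 Unannotated cells and 0.381% of Car1 cells.

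Flt3 (chromosome 5, 147330741 to 147400489, minus strand) had 0 UMIs in the 175 KO-labelled Unannotated cells, and 445 UMIs in 81 of the 143 Control ones, a level of 238 CPM. Against a floor of 3 UMIs over the KO-labelled cells, the Control level was 151-fold higher. Named cells had 4.87 CPM in the KO-labelled library and 24.1 CPM in Control. Unannotated cells had the highest Flt3 level of the 14 Control classes with 20 cells or more, ahead of the Cd74 class at 121 CPM, and the lowest of 11 such classes in the KO-labelled library.

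Itga2b (chromosome 11, 102453297 to 102470122, minus strand) ran the other way, at 808.5 CPM in KO-labelled and 76.1 CPM in Control Unannotated cells, a ratio of 10.6 (8.94 to 12.7). It was detected in 172 of 175 KO-labelled cells, with a median of 7 UMIs, and in 48 of 143 Control cells, with a median of 0. Named cells had 391 CPM in the KO-labelled library and 53.8 CPM in Control, so the gene was higher in the KO-labelled library outside the Unannotated cells as well. The Pf4 class stood above them in both libraries, at 1347 CPM in the KO-labelled library and 553 CPM in Control. In cells with at least 10% mitochondrial UMIs Itga2b reached 2217 CPM (20 cells) against 753 CPM in the others in the KO-labelled library, and 1113 CPM (8 cells) against 64.5 CPM in Control; without such cells the log2 ratio between the libraries was 3.36, against 3.25 with them.

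Cd34 (chromosome 1, 194938819 to 194961279, plus strand) was present in both groups, at 72.6 CPM in 81 of 175 KO-labelled cells and 358 CPM in 108 of 143 Control cells, a ratio of 0.203 (0.168 to 0.244). Named cells had 94.4 CPM in the KO-labelled library and 170 CPM in Control. Taken over all classes, Unannotated cells thus lay below named cells in the KO-labelled library and above them in Control. The Control level was close to that of the CD34 class (376 CPM), and the KO-labelled level was well under it (308 CPM). By the placement described below, KO-labelled cells beside the Car1 and Pf4 classes were above those classes, at 63.7 against 19.3 CPM and 78.3 against 30.6 CPM. Those beside the CD34 class were below it, at 101 against 308 CPM. Among Control Unannotated cells 75 of the 76 with a Dntt UMI also had Cd34, against 33 of the 67 without.

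**Figure D1:**
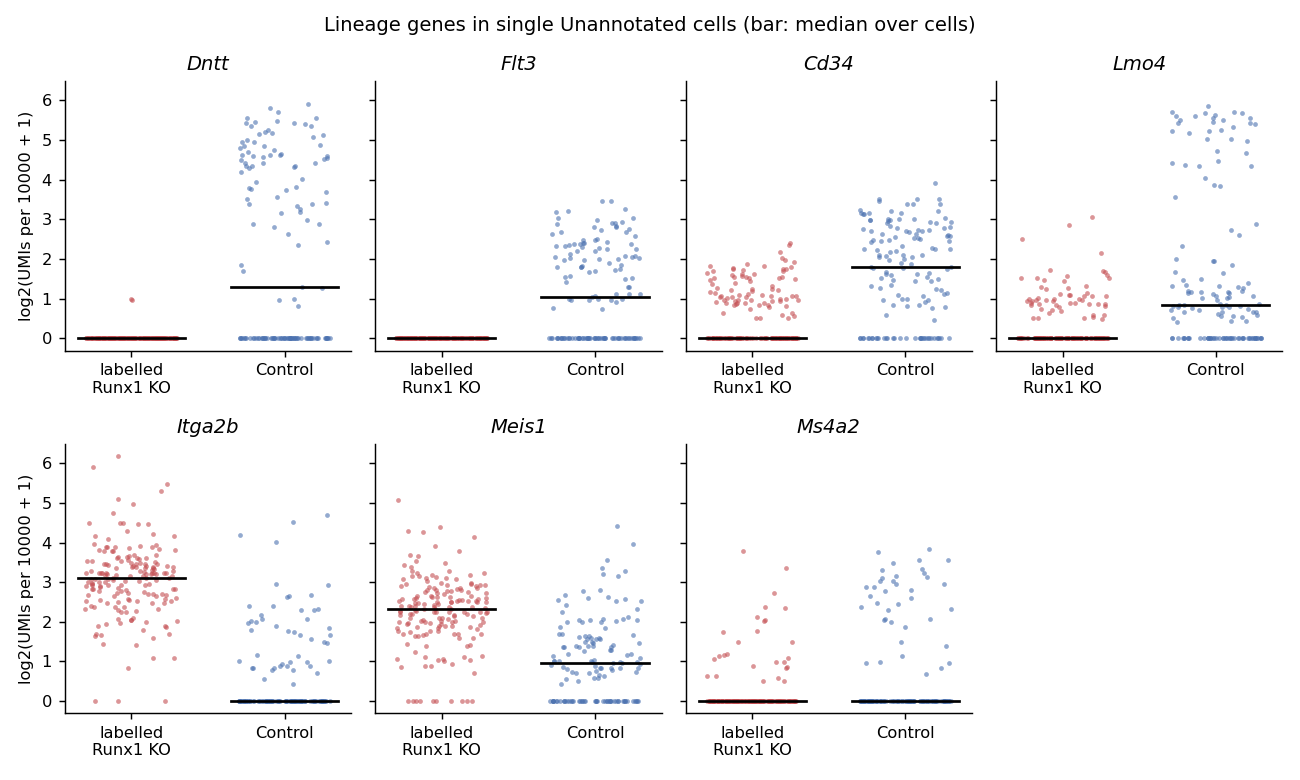
Levels of 7 genes in each Unannotated cell, as log2 of UMIs per 10000 plus 1, in the library labelled Runx1 KO (175 cells, red) and in Control (143 cells, blue); each point is 1 cell and the bar is the median over cells. Dntt, Flt3 and Lmo4 spread over many Control cells with a separate band at 0, while Itga2b and Meis1 are above 0 in nearly all KO-labelled cells.

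Within Control cells the lymphoid genes fell into the same cells. Of the 76 cells with a Dntt UMI, 72 had Flt3, 74 had Ighm (the immunoglobulin heavy chain gene), 71 had Satb1 (a chromatin organiser of lymphoid cells), 65 had Notch1 (the receptor that directs T cell fate) and 40 had Il7r (the interleukin 7 receptor). Of the 67 cells without Dntt, 9 had Flt3, 11 had Ighm, 25 had Satb1, 3 had Notch1 and 2 had Il7r. The genes of other paths showed the reverse: Itga2b was in 6 of the 76 and 42 of the 67, Gata2 (a factor of early, basophil and mast cells) in 16 of the 76 and 57 of the 67, and Ms4a2 (a chain of the IgE receptor) in 2 of the 76 and 37 of the 67. Dntt was thus seldom in the same Control cell as Itga2b or Ms4a2.

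**Figure D2:**
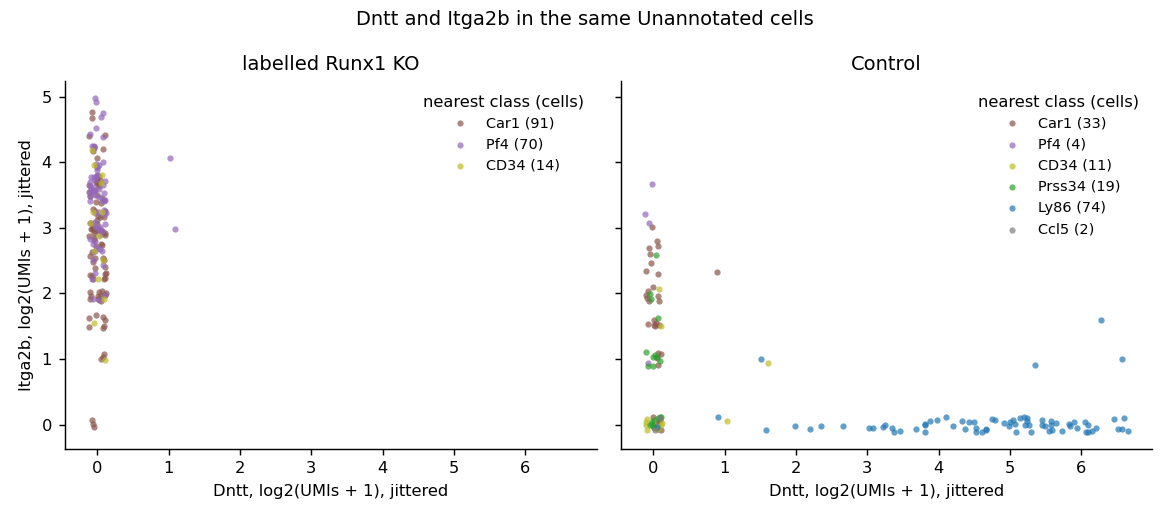
UMIs of Dntt (x axis) and Itga2b (y axis) in the same Unannotated cell, both as log2 of UMIs plus 1 with a small jitter, in the library labelled Runx1 KO (left) and Control (right); colours give the most frequent class among the 15 nearest named cells. In Control the 74 cells beside the Ly86 class run along the Dntt axis and the others along the Itga2b axis, while 2 KO-labelled cells have a Dntt UMI.

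To place each cell among the named classes, its 15 nearest named cells of the same library were found over 30 principal components, and the most frequent class among them was recorded. The KO-labelled cells lay beside the Car1 class (91 of 175, 52.0%, 44.3 to 59.6), named by an erythroid carbonic anhydrase, beside the Pf4 class of the megakaryocyte lineage (70, 40.0%, 32.7 to 47.7) and beside the CD34 class (14 cells). The Control cells lay beside the Ly86 class (74 of 143, 51.7%, 43.3 to 60.2), whose naming gene is expressed in myeloid cells, the Car1 class (33, 23.1%), the Prss34 class, whose naming gene is a protease of basophils (19, 13.3%), the CD34 class (11, 7.69%), the Pf4 class (4) and the Ccl5 class (2). No class had a majority of the neighbours for 21 KO-labelled cells (12.0%, 7.58 to 17.8) against 3.06% of named cells, and for 5 Control cells (3.50%, 1.15 to 7.97) against 5.62% of named cells. With 30 neighbours these shares were 12.57% of KO-labelled and 12.59% of Control Unannotated cells, so the gap between the libraries depended on that number. With the class-naming genes left out of the components, 87 KO-labelled cells lay beside Car1 and 70 beside Pf4, and 73 Control cells lay beside Ly86.

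**Figure D3:**
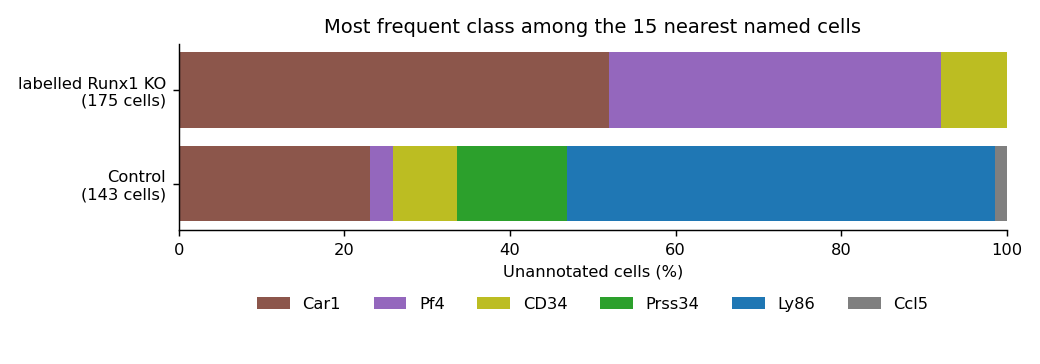
Share of Unannotated cells (x axis, percent) by the most frequent class among their 15 nearest named cells, in the library labelled Runx1 KO (top) and Control (bottom). Car1 and Pf4 take 52.0% and 40.0% of the KO-labelled cells, and Ly86 takes 51.7% of the Control cells.

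The Control cells beside the Ly86 class were those with Dntt. Of these 74 cells, 73 had a Dntt UMI and 67 had at least 5, at 2237 CPM against 59.9 CPM in the Ly86 class itself. They also exceeded that class in Flt3 (372 against 64.0 CPM), in Satb1 (324 against 71.1), in Notch1 (226 against 41.5), in Ighm (578 against 206) and in Il7r (101 against 1.87). Genes of the granulocyte and monocyte path were lower in them than in the class: Elane (neutrophil elastase) at 29.9 against 1962 CPM, Mpo (myeloperoxidase) at 360 against 3803 CPM, and Csf1r, the receptor for macrophage colony-stimulating factor, at 21.4 against 66.0 CPM. Irf8, a factor of monocytes and dendritic cells, was nearer to the class at 352 against 493 CPM. Among all cells, named or not, 66.7% of their nearest neighbours were themselves Unannotated, against 9.50% for the Control cells beside Car1, so most of their neighbours carried no class name either. The gaps above are to the whole Ly86 class, whose lymphoid and neutrophil progenitor lists summed to 432 and 14247 CPM. Over all 143 Control Unannotated cells these lists summed to 2442 and 2963 CPM. In the nearest named cells of those 143 the sums were 1386 and 3742 CPM.

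The Control cells beside the Prss34 class carried many basophil and mast cell genes but few UMIs of Prss34 or Mcpt8. All 19 had Gata2, Ms4a2, Hdc (the histamine-making enzyme), Cpa3 (a mast cell protease) and Lmo4, a LIM-domain regulator. Lmo4 was at 3753 CPM against 2165 CPM in the Prss34 class, Hdc at 794 against 379, and Ms4a2 at 618 against 1013. Prss34 itself was at 8.77 against 4458 CPM and Mcpt8, the other basophil protease, at 8.77 against 3818 CPM, each with 2 UMIs. Cells beside the Control Car1 class overlapped with this pattern: Ms4a2 had UMIs in 13 of the 33, Hdc in 12 and Itga2b in 26.

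The KO-labelled cells beside the Pf4 class carried some megakaryocyte genes near the level of that class and others far under it. Summed over the megakaryocyte list, they had 3021 CPM against 8945 CPM in the class. All 70 had Itga2b, at 1068 CPM against 1347 CPM in the named class, and 69 had Meis1, at 482 against 392 CPM. Treml1, a receptor of platelet granules, was in 64 of the 70, at 420 against 745 CPM. Pf4 was at 59.1 against 3469 CPM, and the adhesion gene Vwf at 8.25 against 98.9 CPM. Ppbp, another platelet chemokine, had 0 UMIs in all KO-labelled Unannotated cells. In the KO-labelled cells beside the Car1 class the erythroid list summed to 701 against 2041 CPM in the class and the late erythroid list to 145 against 178 CPM. The members differed: Klf1, the erythroid master factor, was at 3.98 against 102 CPM, and Gata1, a factor of erythroid and megakaryocyte cells, at 104 against 117 CPM, in 52 of the 91 cells. In the same cells Itga2b stood at 650 against 322 CPM and Meis1 at 401 against 166 CPM. Dlk1, a membrane protein of immature cells, was found in 64 KO-labelled Unannotated cells at 159 CPM against 33.3 CPM in named cells, and in 0 Control ones, which puts it at least 98.9-fold higher in the KO-labelled cells. Named classes differed in the same direction. KO-labelled against Control, the CD34 class had 107 against 0.534 CPM, the Pf4 class 59.6 against 0.458 CPM and the Car1 class 35.05 against 0.111 CPM.

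The gene that names a class was low in the Unannotated cells beside it, in both libraries. Car1 had 1 UMI in the 91 KO-labelled cells beside its class (0.996 CPM), against 261 CPM in the class, and 72.8 CPM in the 33 Control cells, against 2034 CPM. For Ly86 the Control values were 87.1 and 212 CPM, and for Cd34 beside the CD34 class they were 101 and 308 CPM in the KO-labelled library and 263 and 376 CPM in Control. The nearest named cells were below their own class in 6 of 7 cases: Car1 in those was at 5.76 CPM in the KO-labelled library and 188 CPM in Control, Pf4 at 459 CPM and Prss34 at 45.6 CPM. The exception was Cd34 in Control, at 394 CPM in the nearest cells against 376 CPM in the class. Set against those nearest cells, Pf4 was 0.129 times as high (0.0928 to 0.174) in the KO-labelled cells and Prss34 0.192 times (0.0226 to 0.737) in the Control cells. The interval reached 1 for Car1 in the KO-labelled library (0.173 times, 0.00427 to 1.02). After thinning to 5000 UMIs, 27.9% of the Unannotated cells beside Pf4 had a Pf4 UMI, against 40.1% of their nearest cells and 69.6% of the class. In Control the thinned shares for Prss34 were 5.26%, 5.71% and 47.95% in the same order, and for Cd34 beside the CD34 class 75%, 83.8% and 78.7%, so at that depth no gap to the nearest cells was detectable for Prss34 and the one for Cd34 rested on 8 cells. The sources used here do not say how classes were assigned, and the part these genes had in the label was not tested.

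**Figure D4:**
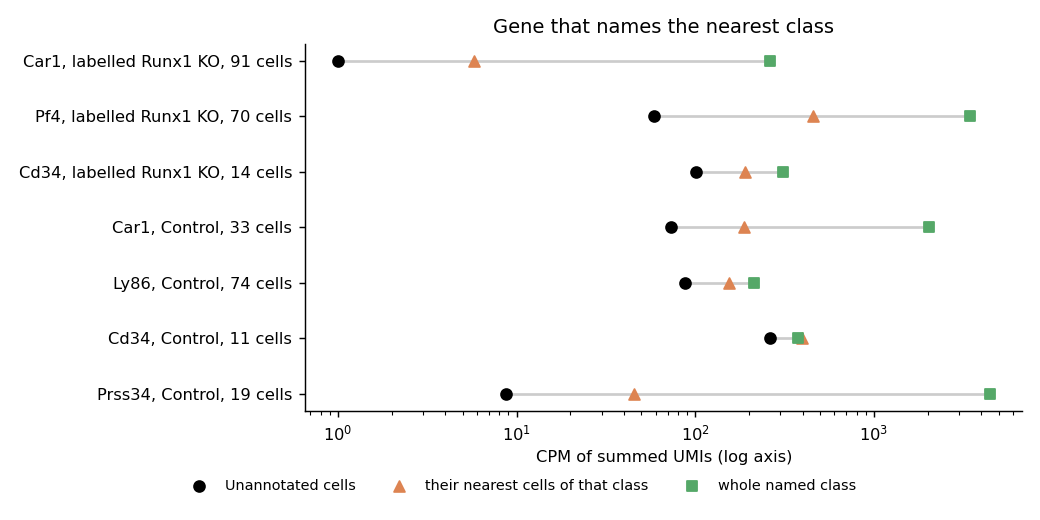
Level of the gene that names the nearest class (x axis, CPM on a log axis) in the Unannotated cells placed beside it, in those cells' nearest named cells of that class and in the whole class, for groups of at least 10 cells. The Unannotated cells are lowest in all 7 rows, with Car1 at 0.996 CPM against 261 CPM in the KO-labelled class and Prss34 at 8.77 CPM against 4458 CPM in the Control class.

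Over all genes, levels were compared as log2 ratios of CPM with 10 CPM added to both sides, for genes with at least 30 CPM in the higher group and 100 UMIs over both. The annotation was made from these same cells, so the ratios to named cells describe the label and test nothing. Of 4998 such genes, 69 (1.38%) were at least 2-fold higher and 133 (2.66%) at least 2-fold lower in KO-labelled Unannotated cells than in named cells of that library. Of 4977 genes, 190 (3.82%) were at least 2-fold higher and 123 (2.47%) lower in Control Unannotated cells than in Control named cells. Among the higher genes 18 were the same, 26.1% of the KO-labelled set and 9.47% of the Control set, and among the lower genes 67 were, 50.4% and 54.5%. The shared lower genes included granule genes of the neutrophil path: Elane was at 23.2 against 1650 CPM in the KO-labelled library and 32.7 against 1855 CPM in Control, and S100a9 at 38.4 against 2665 CPM and 13.9 against 646 CPM. The shared higher genes included Hist1h2bc, a histone gene (321 against 81.5 CPM in the KO-labelled library, 222 against 77.2 CPM in Control), Meis1 (428 against 148 CPM, 134 against 56.0 CPM) and Il12a (139 against 55.1 CPM, 161 against 22.8 CPM).

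Against their own nearest named cells, which were chosen for likeness in these genes, few differences could remain. In the KO-labelled library 0 of 4802 genes (0%) were at least 2-fold higher and 1 (0.0208%) was lower, which was Pf4. In Control 10 of 4814 genes (0.208%) were at least 2-fold higher and 5 (0.104%) lower. Dntt was among the 10, at a log2 ratio of 1.11. Genes with smaller differences were named only if their ratio had the same sign in both libraries, so their shared direction is no result. Srm and Rrp1b, which act in polyamine and ribosome production, had log2 ratios of -0.57 and -0.69 in the KO-labelled library. In Control theirs were -0.44 and -0.48. Pik3ip1, an inhibitor of PI3 kinase, had 0.57 in the KO-labelled library and 0.46 in Control.

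The direct comparison of Unannotated cells found 186 of 4875 genes (3.82%) at least 2-fold higher and 162 (3.32%) lower in the KO-labelled library than in Control, with a median log2 ratio of 0.04 over all of them. Higher in KO-labelled cells were genes of the platelet surface: Treml1 at 332 against 14.5 CPM, Gp5 at 201 against 16.1 CPM and Clec1b at 94.7 against 0.536 CPM. So were adhesion genes of early progenitors, with Esam at 130 against 4.29 CPM and Jam3 at 96.8 against 0.536 CPM. Lower, besides Dntt and Flt3, were Satb1 at 2.11 against 222 CPM, Notch1 at 0.526 against 143 CPM, Ighm at 11.1 against 374 CPM, Irf8 at 3.16 against 223 CPM and Lmo4 at 54.7 against 791 CPM. For 8 genes the ratio was also computed without the 74 Control cells beside Ly86, a setting chosen after seeing the data; 0 KO-labelled cells lay there. Without them the log2 ratio of Dntt was -0.51 in place of -7.00, of Flt3 -1.29 in place of -4.63, of Ighm -1.03 in place of -4.19, of Cd34 -0.56 in place of -2.16, of Itga2b 1.98 in place of 3.25 and of Meis1 0.94 in place of 1.60. For Lmo4 it was -4.96 in place of -3.63 and for Ms4a2 -2.91 in place of -1.57.

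The neighbourhood with the most cells of both libraries was that of the Car1 class, with 91 KO-labelled and 33 Control cells. There Itga2b was at 650 against 302 CPM (ratio 2.15, 1.71 to 2.74), Treml1 at 290 against 65.6 CPM (4.42, 2.75 to 7.56), and Nrgn, a calmodulin-binding protein gene, at 794 against 244 CPM (3.25, 2.53 to 4.24). Ifitm1, an interferon-induced membrane protein gene, was at 90.6 against 2003 CPM (0.0452, 0.0358 to 0.0566), Lmo4 at 58.7 against 1111 CPM (0.0529, 0.0393 to 0.0701) and Hdc at 8.96 against 266 CPM (0.0337, 0.0148 to 0.0676). These Control levels rested on few cells, since of the 33 cells 9 had 5 or more UMIs of Lmo4, 8 of Ifitm1 and 5 of Hdc, and 1 cell held 186 of the 550 Ifitm1 UMIs. Cd34 was at 63.7 against 69.2 CPM and Meis1 at 401 against 342 CPM, and both intervals of the ratio held 1 (0.545 to 1.63 and 0.934 to 1.48). The named Car1 classes differed in the same direction for Itga2b, at 322 against 69.0 CPM, and for Ifitm1, at 30.6 against 515 CPM.

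The lineage lists were counted in the same way. Over all genes, 1.38% were at least 2-fold higher than in named cells in the KO-labelled library and 3.82% in Control. The shares at least 2-fold lower were 2.66% and 2.47%. Between the Unannotated cells of the libraries, 3.82% of all genes were at least 2-fold higher and 3.32% lower in KO-labelled cells. Of 12 lymphoid progenitor genes, 6 were measured in Control and all 6 were at least 2-fold higher in Unannotated than in named cells (median log2 ratio 2.40, against 0.00 over all genes). In the KO-labelled library 2 were measured, Il12a higher and Ighm lower, and Il12a made up 139 of the 163 CPM of the list; between libraries 5 of 6 were at least 2-fold lower in KO-labelled cells (median -4.03). Rag1 and Rag2, the recombinase genes, had 0 UMIs in KO-labelled cells and 5.36 and 13.9 CPM in Control ones, under the minimum. Of 18 megakaryocyte genes, 9 of the 10 measured were at least 2-fold higher in KO-labelled than in Control Unannotated cells (median 2.10), while against the named cells of their own library 1 was higher and 1 lower. The early progenitor list had 5 of 11 measured genes at least 2-fold higher than in named cells in the KO-labelled library and 5 of 10 in Control, with 0 lower. A gene could pass the minimum CPM through its higher group alone, as Dntt and Il12a did in Control and Clec1b between libraries. The level that was compared thus helped to choose the members counted. These list counts describe the cells and test nothing.

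For the lists that follow, the shares over all genes were 1.38% higher and 2.66% lower in the KO-labelled library, and 3.82% higher and 2.47% lower in Control. Of the late neutrophil genes 10 of 11 measured were at least 2-fold lower than in named cells in the KO-labelled library and 7 of 8 in Control; of the erythroid genes 8 of 12 and 8 of 11; of the neutrophil progenitor genes 8 of 12 in each. Monocyte genes summed to 35.3 against 517 CPM in the KO-labelled library and 504 against 919 CPM in Control. Basophil and mast genes had 3 of 8 measured genes at least 2-fold higher and 2 lower in Control, and 1 of 4 higher and 1 lower in the KO-labelled library. The plasmacytoid dendritic list had 4 of 5 measured genes higher in Control, among them Cox6a2, a cytochrome oxidase subunit gene, at 111 against 3.15 CPM; 56 of the 76 cells with Dntt had it and 0 of the 67 others. Ly6d on that list had 117 UMIs in 3 cells, so its level rests on them.

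**Figure D5:**
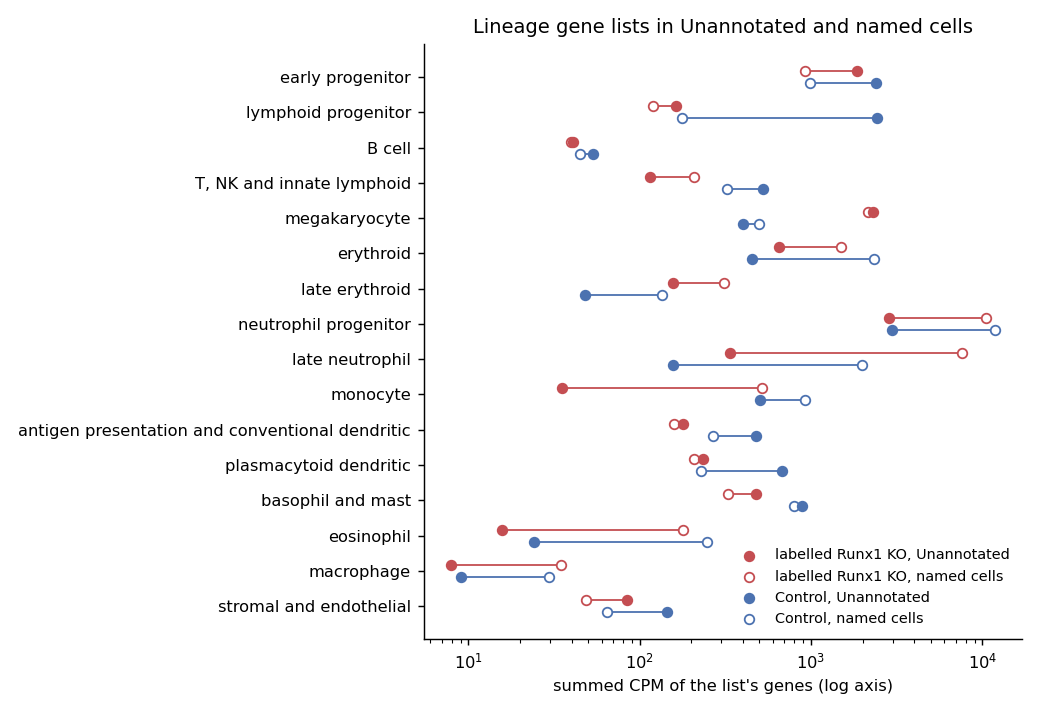
Summed level of each lineage list (x axis, CPM on a log axis) in Unannotated cells (filled) and named cells (open) of the library labelled Runx1 KO (red) and Control (blue). In Control the lymphoid progenitor list is at 2442 CPM in Unannotated and 176 CPM in named cells, and the late neutrophil list is lower in Unannotated cells of both libraries.

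Lists of other cell types were summed as well. Macrophage genes summed to 7.89 CPM in KO-labelled and 9.11 CPM in Control Unannotated cells, against 34.7 and 29.7 CPM in named cells, and C1qb had 1 UMI in the KO-labelled cells and 0 in Control. Eosinophil genes summed to 15.8 against 180 CPM in named cells of the KO-labelled library and to 24.1 against 249 CPM in Control. B cell genes were near the named level, at 40.5 against 39.7 CPM in the KO-labelled library and 53.04 against 45.1 CPM in Control. Stromal and endothelial genes summed to 84.7 against 48.4 CPM in named cells of the KO-labelled library, and to 145 against 64.2 CPM in Control, with 8 of 14 at 0 in each. The 2 stromal and endothelial genes measured in Control, Pdgfrb and Pecam1, were both at least 2-fold higher, as were 3.82% of all genes. Against the nearest named cells 0 of these 2 genes were, and the list summed to 145 against 126 CPM. The T and NK list summed to 114 against 208 CPM in the KO-labelled library and to 524 against 323 CPM in Control, where Nkg7 gave 261 CPM, Ccl5 134 CPM and Gzmb 66.4 CPM. Of these, Ccl5 came from few cells: 4 Control cells held 249 of the 250 Ccl5 UMIs and 126 of the 149 UMIs of Trbc1, a T cell receptor constant gene outside the list. Of other list members, Tcf7 had 47 UMIs in these 4 cells and 8 in the other 139, while Cd3g and Trbc2 were at 0 in the 4. Dntt had 37 UMIs in 1 of the 4. In KO-labelled cells 216 of the 217 UMIs of that list came from Nkg7, which the neutrophil progenitor list shares.

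Lists were also counted per cell. A cell was said to carry a list when its UMIs of that list reached the 10th percentile of the class that stands for it. By that measure 54 of 175 KO-labelled cells (30.9%, 24.1 to 38.3) and 5 of 143 Control cells (3.50%, 1.15 to 7.97) carried the megakaryocyte list, against 4.28% and 1.48% of the named cells of other classes. The KO-labelled share was 42.9% at the 5th percentile and 8% at the 25th. The erythroid list was carried by more cells, 106 KO-labelled (60.6%, 52.9 to 67.9) and 51 Control (35.7%, 27.8 to 44.1). Among named cells of other classes its shares were 36.5% and 18.2%. The early progenitor list was carried by 88.6% and 97.2% of Unannotated cells, against 44.15% and 40.9%. The monocyte list was carried by 0 KO-labelled and 18 Control cells (12.6%), against 5.04% and 10.1%. The basophil and mast list was carried by 1 KO-labelled cell (0.571%) and 20 Control cells (14.0%, 8.76 to 20.8), against 0.54% and 1.385% of named cells of other classes. Its Control share was 6.29% at the 25th percentile. The neutrophil progenitor list was carried by 0 Unannotated cells in each library, against 8.35% and 12.0% of named cells of other classes. For the late neutrophil list the count was 0 in each library as well, against 0.0267% and 0.0447%. The lymphoid progenitor list has no class of its own and was set against the 99th percentile of the Car1 class. It was carried by 21 KO-labelled cells (12.0%, 7.58 to 17.8) and 81 Control cells (56.6%, 48.1 to 64.9), against 7.23% and 13.4% of named cells. After thinning the KO-labelled share was 6.45%. Il12a made up 139 of the 163 CPM of this list in the KO-labelled Unannotated cells. Among named classes of 20 cells or more, Il12a was highest in the Pf4 class, at 162.5 CPM in the KO-labelled library and 71.4 CPM in Control. Carrying the list thus does not by itself mark a KO-labelled cell as lymphoid. Lists of 2 or more lineages were carried by 26.9% (20.4 to 34.1) of KO-labelled and 30.8% (23.3 to 39.0) of Control Unannotated cells, against 29.97% of KO-labelled and 26.85% of Control named cells, and these shares moved more than 1.5-fold with the level chosen, to 41.1% and 7.43% for the KO-labelled and 49.7% and 8.39% for the Control cells at the 5th and 25th percentile.

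Genes of cell division were also counted. Over all genes, 1.38% were at least 2-fold higher and 2.66% lower than in named cells in the KO-labelled library. In Control 3.82% were higher and 2.47% lower. In lists this short, counts of 0 or 1 gene past 2-fold are near those shares. G2/M genes summed to 1887 against 1743 CPM in named cells of the KO-labelled library and to 1430 against 1586 CPM in Control, with 0 of 15 measured genes past 2-fold in either. S phase genes summed lower, at 1011 against 1900 CPM in the KO-labelled library, where 5 of 18 were at least 2-fold lower, and at 1259 against 2001 CPM in Control, where 1 of 18 was. The p53 target list had 0 of 3 measured genes past 2-fold in the KO-labelled library and 2 of 5 higher in Control, and mitochondrially encoded genes had 0 of 12 past 2-fold in either library.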

How the data were processed

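The deposited matrix holds counts, UMIs per gene and cell for 31053 genes, made by the authors from 10x 3′ version 3 libraries with Cell Ranger and mm10, per the submitters' processing notes. The deposited annotation gives counts of UMIs and genes per cell, the fraction that is mitochondrial, a scaling ratio (the size factor) and the class; tool versions and the way classes were assigned are not given there. Matrix sums equalled the annotation in all 14795 cells, and no cell had fewer than 1000 genes.

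UMIs were summed per library and class and given as CPM. Gene positions are those of GENCODE on GRCm38. Neighbours were found within a library over 2000 variable genes without mitochondrial genes. The members, gene lists and naming rule were chosen with earlier results of these data known. Genes named were those of that rule (the naming and marker genes, the largest ratios of each comparison and the leading members of each list). Vwf, Ppbp, Klf1, Mcpt8, Csf1r, Il7r, Ms4a2, Nrgn, Trbc1, Trbc2, Tcf7, Cd3g, Rag1 and Rag2 fall outside it and were chosen after their values were seen. Tools were Scrublet in scanpy 1.11.5 (expected doublets 6%) and scikit-learn 1.9.0. The fold, interval and neighbour steps were tested on simulated data. Alternatives covered pseudocount, filters, doublets, neighbours and thinning. Of the listed symbols 2 were not matched. The neutrophil libraries that the series' design text mentions were not analysed here.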

Additional observations from a re-analysis of the deposited data

How the results depend on the processing

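No paired analysis was possible because each group is 1 library and the labels carry no replicate numbers. Of 76 recomputed summary values 61 stayed within their limits and 15 moved; of 78 values for single genes and lists 50 stayed and 28 moved. None reversed. The share carrying lists of 2 or more lineages moved from 26.9% to 41.14% (5th percentile), 7.429% (25th) and 41.29% (thinned) in the KO-labelled library, and from 30.8% to 49.65%, 8.392% and 52.34% in Control. Cells with no majority class were 12.59% of Control at 30 neighbours. With a pseudocount of 1, genes at least 2-fold higher than in named cells numbered 143 (KO-labelled) and 313 (Control), and those higher than in the nearest cells 1 and 16; with mean per-cell CPM the first were 32 and 125. With no minimum CPM and at least 20 UMIs, 313 genes were higher and 333 lower in KO-labelled than in Control cells. The cause was not tested, beyond that the last setting admits more low genes. The setting without cells nearest Ly86, and the one without high-mitochondrial cells beside Car1, were chosen after seeing the data; the second left all 6 ratios within their intervals. With 1 library a group and 318 cells, genes under about 30 CPM could not be compared, and a difference between mice cannot be told apart from one between libraries.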
